A study of Mus musculus with 8 samples.

Results

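YAP and TAZ are paired transcriptional coactivators that bind DNA through the TEAD transcription factors, and the genes described here are that module and a set of its well-known targets in mouse astrocytes. The members are the coactivators Yap1 and Wwtr1 (the gene of TAZ), the DNA-binding partner Tead1, and the targets Ctgf, Cyr61, Ankrd1, Amotl2, Lats2, Ajuba and Axl. They were chosen by symbol from the deposited expression table, and all 10 were found among its 23401 genes.

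In the Hippo pathway, a cascade of kinases phosphorylates YAP and TAZ, which holds them in the cytoplasm or marks them for degradation. When the cascade is inactive they enter the nucleus and raise transcription of TEAD targets. Cells that spread on a stiff surface typically hold more nuclear YAP and TAZ than rounded cells or cells on a soft one, and Ctgf, Cyr61 and Ankrd1 are the usual transcript readouts. Several targets feed back on the pathway: Lats2 encodes a kinase that restrains YAP and TAZ, and Amotl2 an angiomotin that binds them. The mRNA of Yap1 and Wwtr1 does not report where their proteins are, so the levels below describe transcripts only.

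RNA was sequenced from cells labelled mouse astrocytes in 4 groups of 2 libraries each: MGS culture at day 5, conventional culture (CV) at day 5, MGS at day 32 and CV at day 32. In the submitters' descriptions, MGS samples carry the word soft and CV samples the word hard. The labels do not spell out MGS, and strain, age, genotype and the number of animals or cultures are not given in the sources used here. Nothing says that the 2 libraries of a group came from separate cultures, so p-values speak of the spread among these libraries alone, which may be technical.

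Levels are given as TPM, a transcript abundance that corrects for gene length and sums to the same total in each library. The files imply 2.15 to 4.69 aligned gigabases per library, and 12912 to 14441 genes per library had at least 1 TPM. The 14904 genes with at least 1 TPM in at least 2 libraries were tested with limma on log2(TPM + 1). Differences below are on that scale unless another is named, and a gene was called at a Benjamini-Hochberg adjusted p under 0.05 over all genes tested. The whole transcriptome was not centred. The median gene was lower in MGS at day 5 (log2 difference -0.142) and higher in MGS at day 32 (0.558), and rescaling by the median of ratios brought these medians to 0.029 and -0.002. Of all called genes at day 32, 78.0% were higher in MGS, against 50.2% after that rescaling. At day 5 the shares were 46.0% and 54.4%.

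The labelled cell type was checked against its markers. The summed level of 10 astrocyte markers was 17405 to 17619 TPM in MGS day 5, 3873 to 4091 in CV day 5, 14462 to 14494 in MGS day 32 and 1740 to 2271 in CV day 32. Of these 10, 5 were called higher and 1 lower in MGS at day 5, beside 22.5% and 26.4% of all genes tested. Their median log2 difference was 0.51, so part of the markers carried the sum. At day 32, 9 were called higher and 1 lower (median 2.47), beside 52.8% and 14.8% of all genes. Other cell types' markers also moved with culture. The sum of 10 microglia markers was 434 to 439 TPM in MGS day 5, 16.5 to 18.1 in CV day 5, 609 in both MGS libraries of day 32 and 5795 to 6332 in CV day 32. The 10 meningeal fibroblast markers summed to 12140 to 14032 TPM in MGS day 5, 607 to 609 in CV day 5, 13894 to 13908 in MGS day 32 and 557 to 759 in CV day 32. In bulk RNA, fewer cells of a type and less RNA per cell cannot be told apart. The part these markers have in the results below was not tested.

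Among the 10 members, transcript levels spanned a wide range. Cyr61, a secreted matrix-associated protein now also named Ccn1, was the most abundant, with a mean level above that of 99.3% of tested genes. Ctgf, its relative now named Ccn2, stood at the percentile 97.6. Ankrd1, a nuclear ankyrin repeat protein of muscle and other stretched cells, stood at the percentile 3.7. The other 7 members lay between the percentiles 68.3 (Tead1) and 91.1 (Amotl2). The figure of levels by library shows each gene on its own scale.

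**Figure D1:**
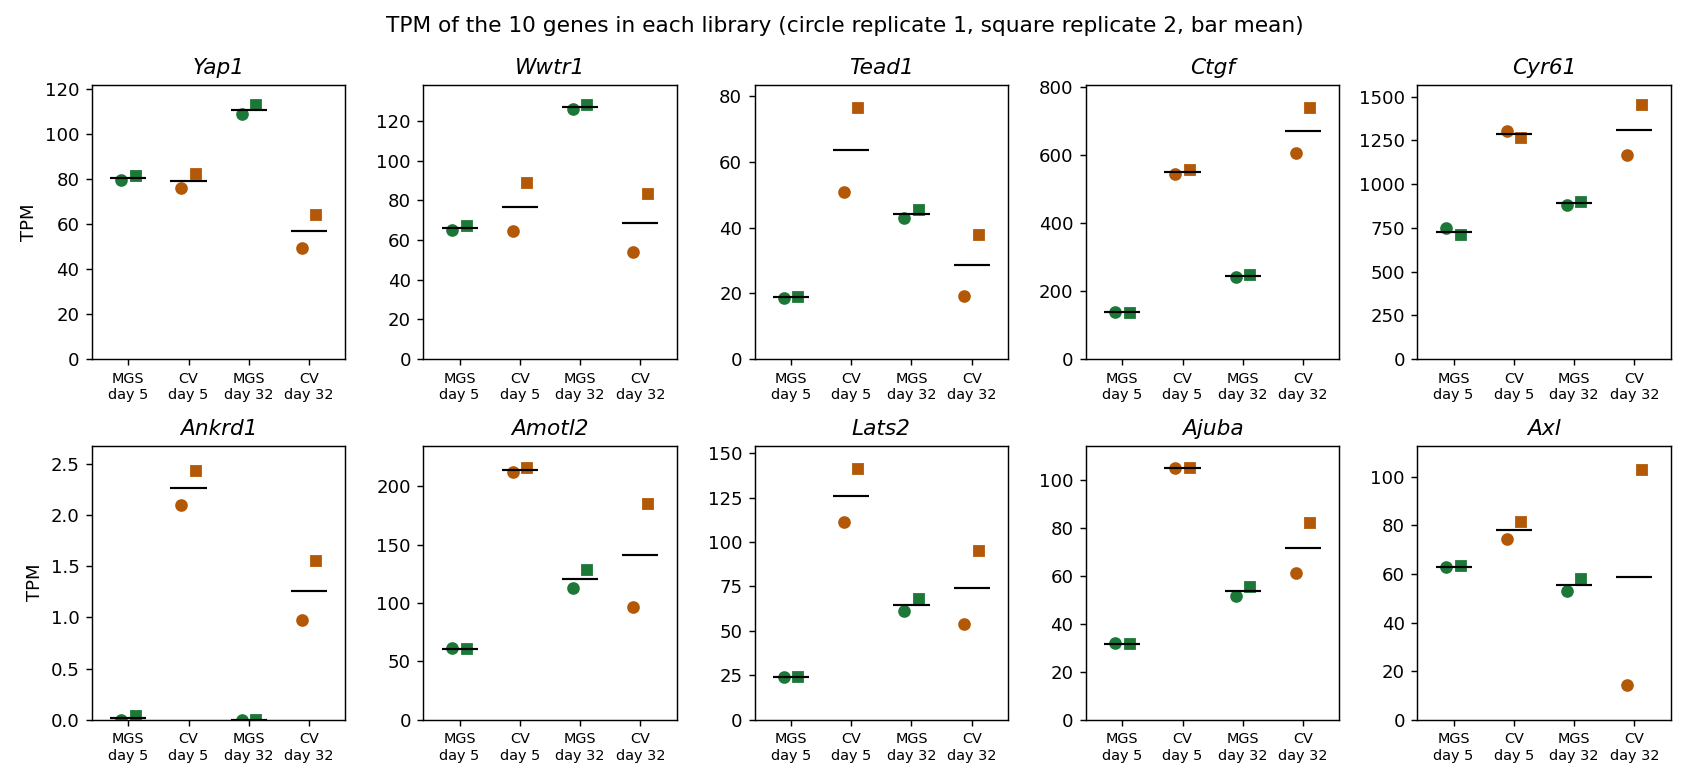
Level in TPM (vertical axes, from 0, a separate scale per gene) of the 10 genes in each of the 8 libraries by culture and day; circles are replicate 1, squares replicate 2 and bars group means. Ctgf and Cyr61 are lower in both MGS libraries than in both CV libraries at each day, while Yap1 and Wwtr1 are higher in MGS at day 32 (109 and 113 TPM of Yap1 against 49.6 and 64.1).

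The promoters of the members were read for the letters CATTCC, or GGAATG on the opposite strand, which are the core of the TEAD binding motif. RefSeq promoter windows of GRCm38.p6, from 250 bases before to 50 after a start site, were at hand for 8 of the 10 members. The windows of Ctgf and Tead1 were not analysed here. Each of the 8 genes had at least 1 window with these letters, against 14.7% of 32851 windows and 16.6% of 27025 genes in the table. The members were listed as known genes of the YAP/TAZ and TEAD module, so this count is not independent of how the list was made. Yap1 held them at -141 from its start site, Wwtr1 at -136 and -170 in its 2 windows, Axl at -233, and Lats2 at +5 in 1 of its 2 windows. The AP-1 letters TGANTCA, searched on both strands, were in 0 of the 8 genes and 7.81% of all windows. The CArG box of serum response factor, also searched on both strands, was in 0 of the 8 and in 1.63% of windows. With only 8 genes, 0 beside such low shares says little, and a match of letters is a description and not a measured site. The 250 bases upstream of 4 targets are printed because they hold these letters upstream of the start site and were lower in MGS at day 5, as given below. Each is written 5′ to 3′ on the gene's own strand, with the TEAD letters in capitals. They lie at chr3:145649986-145650235 on the minus strand (Cyr61), chr19:36119845-36120094 on the minus strand (Ankrd1), chr9:102717554-102717803 on the plus strand (Amotl2) and chr14:54577662-54577911 on the minus strand (Ajuba).
Cyr61: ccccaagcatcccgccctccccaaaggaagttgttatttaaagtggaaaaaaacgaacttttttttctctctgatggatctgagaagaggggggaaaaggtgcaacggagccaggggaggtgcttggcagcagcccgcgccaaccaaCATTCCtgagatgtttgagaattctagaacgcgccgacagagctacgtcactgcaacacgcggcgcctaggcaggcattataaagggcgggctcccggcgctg
Ankrd1: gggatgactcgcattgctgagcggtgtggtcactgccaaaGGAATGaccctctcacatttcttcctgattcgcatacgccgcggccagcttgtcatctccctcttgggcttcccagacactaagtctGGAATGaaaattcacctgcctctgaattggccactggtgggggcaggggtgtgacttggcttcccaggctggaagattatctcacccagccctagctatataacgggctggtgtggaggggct
Amotl2: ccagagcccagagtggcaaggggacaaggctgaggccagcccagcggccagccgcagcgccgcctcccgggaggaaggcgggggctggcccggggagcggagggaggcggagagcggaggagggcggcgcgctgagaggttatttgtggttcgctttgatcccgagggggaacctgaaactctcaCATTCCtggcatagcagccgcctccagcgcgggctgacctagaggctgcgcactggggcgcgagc
Ajuba: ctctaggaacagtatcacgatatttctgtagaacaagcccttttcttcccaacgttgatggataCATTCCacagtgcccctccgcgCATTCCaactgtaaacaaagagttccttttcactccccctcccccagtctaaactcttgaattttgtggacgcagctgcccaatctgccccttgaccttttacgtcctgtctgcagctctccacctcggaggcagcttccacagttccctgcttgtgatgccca
Cyr61 held the letters once, first base at -103, and Amotl2 once at -65. Ankrd1 held 2 copies, at -210 and -123, and Ajuba 2 copies, at -186 and -164.

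**Figure D2:**
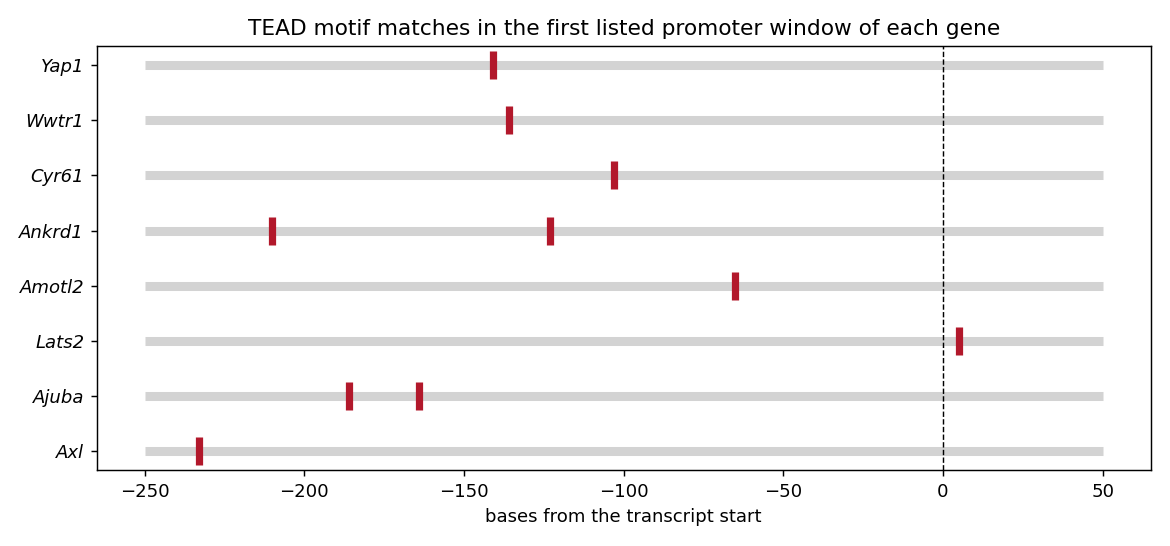
Distance in bases from the transcript start (horizontal axis) of the first base of each CATTCC or GGAATG match, in the first listed RefSeq promoter window of the 8 genes found there; each grey band is a window and each red mark a match. The matches lie between -233 (Axl) and +5 (Lats2).

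At day 5 the coactivators themselves overlapped between the 2 cultures on the TPM scale, while 7 of the other 8 members were lower in MGS. Of all 14904 genes tested, 48.9% were called at day 5, 26.4% as lower and 22.5% as higher. The median log2 difference of the 10 members was -1.68, against -0.142 over all genes tested. Ankrd1 passed the filter on low values only through the CV libraries, so its call was partly fixed by that filter. The other 6 lower members did not depend on it. All 7 were called lower under each alternative processing in which they were tested.

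Yap1, which lies at chr9:7932001-8004596 in mm10, the build of the files' coordinates, stood at 79.5 and 81.5 TPM in MGS and 76 and 82.3 TPM in CV at day 5. The groups overlapped, and the log2 difference was 0.03 (SE 0.14, 95% interval -0.29 to 0.34, adjusted p = 0.888). Wwtr1 (chr3:57455644-57575910) stood at 65.3 and 66.9 TPM in MGS and 64.8 and 89 TPM in CV, also overlapping. Its difference was -0.20 (SE 0.22, 95% interval -0.71 to 0.32, adjusted p = 0.48). Neither interval reaches a 2-fold change, and neither shows that the levels were the same. The length and GC correction called Yap1 higher in MGS at day 5, at 0.34 (limma adjusted p = 0.0231). FPKM, median-of-ratios rescaling and quantile normalization gave Yap1 0.16, 0.22 and 0.21, none of them called.

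Tead1 (chr7:112679320-112906805), the TEAD factor among the members, was 3.40-fold lower in MGS at day 5. It measured 18.5 and 19 TPM in MGS and 50.8 and 76.5 TPM in CV, with no overlap, a log2 difference of -1.68 (SE 0.31) and an adjusted p of 0.00331. It was not the only member of its family: Tead2 stood at 83.4 to 87.1 TPM in MGS and 64.5 to 73.8 in CV, and its difference of 0.30 was not called (adjusted p = 0.0785). Tead1 therefore made up 13 and 13.8% of the summed Tead1 to Tead4 level in MGS and 32 and 44.1% in CV.

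Ctgf (chr10:24595442-24598682) encodes a secreted matricellular protein and is the most used YAP/TAZ reporter transcript. At day 5 it measured 139 and 135 TPM in MGS and 543 and 556 TPM in CV, 4.01-fold lower in MGS. The spread within each group was small beside that gap (log2 difference -2.0, SE 0.11, adjusted p = 1.04e-05). Cyr61 (chr3:145646971-145649985) measured 747 and 710 TPM in MGS and 1304 and 1266 TPM in CV, which is 1.76-fold lower in MGS (log2 difference -0.82, SE 0.12, adjusted p = 0.0011). In both genes the MGS and CV libraries did not overlap.

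Ankrd1 (chr19:36111965-36119844) was listed at 0 in the first MGS library of day 5 and at 0.0356 TPM in the second, and at 2.1 and 2.43 TPM in CV. The files give it a mean depth of 0.0758 per base in that second MGS library and of 2.92 and 2.62 in the CV libraries. It was called lower in MGS with limma (adjusted p = 6.66e-05). No fold is given, since the difference depends on the pseudocount: -1.68 with 1 TPM added and -4.34 with 0.1 TPM.

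The 3 targets that act on the kinase cascade or its output, Lats2, Amotl2 and Ajuba, were each more than 3-fold lower in MGS at day 5. Lats2 (chr14:57689662-57746123), a kinase that phosphorylates YAP and TAZ, measured 24.1 and 24.2 TPM in MGS against 111 and 141 TPM in CV. This was the largest fold among the members with detected levels in all libraries, at 5.21-fold lower (log2 difference -2.32, SE 0.25, adjusted p = 0.00024). Amotl2 (chr9:102717804-102733417) measured 61.7 and 60.4 TPM in MGS against 212 and 216 TPM in CV, with a log2 difference of -1.79 (SE 0.26, adjusted p = 0.0011). Ajuba (chr14:54567469-54577661), a LIM protein that binds and inhibits LATS kinases, measured 31.9 and 31.5 TPM in MGS and 105 TPM in both CV libraries. Its difference was -1.69 (SE 0.15, adjusted p = 8.93e-05). None of these 3 genes overlapped between cultures. The deposited coverage of Lats2 was 27.5% to 30.3% of what its FPKM implies in all 8 libraries, against 97.1% to 100% for the other members, so its level beside other genes is uncertain, while its ratio between libraries rests on a near-constant share.

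Axl (chr7:25756500-25788733), a receptor tyrosine kinase activated by Gas6, measured 62.7 and 63.1 TPM in MGS and 74.4 and 81.6 TPM in CV at day 5. The libraries did not overlap, but the difference was not called (log2 difference -0.31, SE 0.73, 95% interval -2.03 to 1.42, adjusted p = 0.751). Its SE came from the shared spread, which the 2 CV libraries of day 32 widened. Without either or both of these, or with only the 4 libraries of day 5, Axl was called lower by the same -0.31 (adjusted p = 0.0143 to 0.0254).

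**Figure D3:**
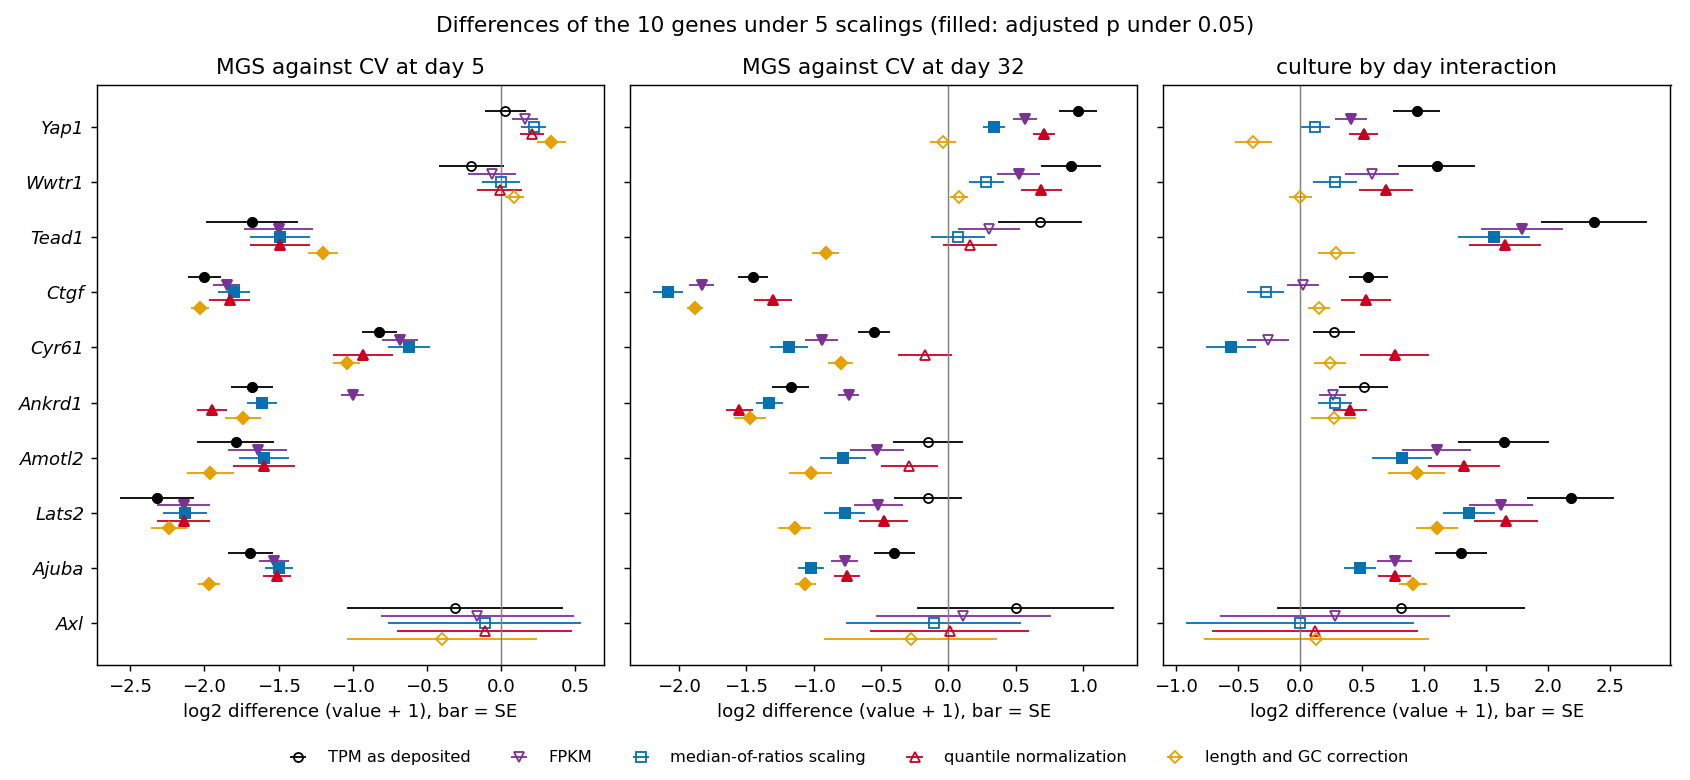
Log2 difference of each of the 10 genes between MGS and CV at day 5 (left), at day 32 (middle) and for the culture by day interaction (right), on the log2(value + 1) scale (horizontal axes); symbols are 5 scalings of the data, bars are limma's SE and filled symbols have an adjusted p under 0.05. With TPM as deposited, Lats2, Ctgf, Amotl2 and Ajuba lie furthest left at day 5 (-2.32 to -1.69), Amotl2 and Lats2 lie at -0.15 at day 32, and Tead1 runs from -0.91 to 0.68 at day 32 across the scalings.

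At day 32 the pattern split on the TPM scale: the coactivators were higher in MGS, the secreted targets Ctgf and Cyr61 remained lower, and Amotl2 and Lats2 overlapped between cultures. Among the members 2 were called higher and 4 lower, where 67.6% of all genes tested were called, 52.8% higher and 14.8% lower. Ankrd1, among the 4, passed the filter on low values only through CV libraries. The members' median log2 difference was -0.15, against 0.558 over all genes.

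Yap1 measured 109 and 113 TPM in MGS and 49.6 and 64.1 TPM in CV at day 32, 1.95-fold higher in MGS (log2 difference 0.96, SE 0.14, adjusted p = 0.000659). Wwtr1 measured 126 and 128 TPM in MGS and 54 and 83.1 TPM in CV, 1.85-fold higher (log2 difference 0.91, SE 0.22, adjusted p = 0.00819). Neither overlapped, but the size and the call of both depend on the scaling. After the median-of-ratios rescaling Yap1 was 0.34 higher (adjusted p = 0.0088) and Wwtr1 0.28 higher and not called (0.0845). Correcting each gene's value for its length and GC content left differences of -0.04 and 0.08, neither called. Tead1 measured 42.8 and 45.4 TPM in MGS and 19.3 and 37.7 TPM in CV, with no overlap, and its difference of 0.68 was not called (SE 0.31, 95% interval -0.04 to 1.40, adjusted p = 0.0824). Without the second CV library of day 32 it was called at 1.15 (adjusted p = 0.00258), and the length and GC correction turned it to a lower call, at -0.91 (0.000215).

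Ctgf measured 241 and 247 TPM in MGS and 604 and 737 TPM in CV at day 32, 2.74-fold lower in MGS (log2 difference -1.45, SE 0.11, adjusted p = 3.17e-05). It was called lower in all 22 settings run for this comparison, with differences from -2.08 to -1.3. Cyr61 measured 882 and 900 TPM in MGS and 1169 and 1455 TPM in CV, 1.47-fold lower (log2 difference -0.55, SE 0.12, adjusted p = 0.005). Quantile normalization took it to -0.17, not called (adjusted p = 0.467), and the median-of-ratios rescaling to -1.18. Ankrd1 was listed at 0 in both MGS libraries and at 0.976 and 1.55 TPM in CV, and was called lower in MGS (adjusted p = 0.000284). It passed the filter on low values only through CV libraries, so this call is not independent of that filter.

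Amotl2 measured 113 and 128 TPM in MGS and 97 and 185 TPM in CV at day 32, so the groups overlapped. Its log2 difference was -0.15 (SE 0.26, 95% interval -0.77 to 0.46, adjusted p = 0.615). Lats2 measured 61.4 and 67.8 TPM in MGS and 53.9 and 94.7 TPM in CV, again overlapping, with a difference of -0.15 (SE 0.25, 95% interval -0.73 to 0.44, adjusted p = 0.62). In both genes the first CV library lay below both MGS libraries and the second above them. Without the first CV library Amotl2 was called lower at -0.62 (adjusted p = 0.00125) and Lats2 at -0.55 (0.0156). Without the second, Amotl2 was called higher at 0.31 (0.0188) and Lats2 was 0.26 higher, not called (0.149). The median-of-ratios rescaling called both lower, Amotl2 at -0.78 and Lats2 at -0.77. FPKM (-0.53 and -0.52) and the length and GC correction (-1.02 and -1.14) called both lower too. Quantile normalization called Lats2 lower (-0.48) but not Amotl2 (-0.29).

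Ajuba measured 51.7 and 55.3 TPM in MGS and 60.9 and 82.1 TPM in CV at day 32. It did not overlap and was just called lower, at -0.40 (SE 0.15, adjusted p = 0.0461). The call did not hold when any 1 library other than the first CV library of day 32 was left out (adjusted p = 0.07 to 0.191, differences -0.45 to -0.18). Each of the other scalings made the difference larger and called it: -0.77 with FPKM, -1.02 with median-of-ratios rescaling, -0.75 with quantile normalization and -1.06 with the length and GC correction (adjusted p = 1.78e-05 to 0.000432).

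Axl measured 52.8 and 58.1 TPM in MGS at day 32, but 14.2 TPM in the first and 103 TPM in the second CV library. That gap of 2.78 on the log2 scale was larger than the gap of 99.81% of tested genes between these same libraries, whose median gap was 0.382. The difference of 0.50 between cultures was not called (SE 0.73, adjusted p = 0.559). It turned to -0.88 without the first CV library and to 1.89 without the second, each called (adjusted p = 0.000341 and 1.05e-05). All 10 members were lower in the first than in the second CV library of day 32, as were 76.8% of all genes tested.

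Over time 4 members, Yap1, Tead1, Lats2 and Ajuba, rose in MGS and fell in CV on the TPM scale, and none of them kept both calls under every scaling. Median-of-ratios rescaling left both calls only to Tead1 (0.77 and -0.79). Under it Yap1 measured 0.03 in MGS and -0.09 in CV, neither called, and the falls of Lats2 (-0.40) and Ajuba (-0.17) in CV were not called. The length and GC correction left both calls only to Ajuba (0.59 and -0.32). Under that correction Tead1 measured 0.08 and -0.21 and Yap1 -0.25 and 0.13, none of them called, and the fall of Lats2 in CV (-0.27) was not called. In MGS, 7 of the 10 members were called higher at day 32 than at day 5 and 0 lower, where 42.5% of all genes were called, 35% higher and 7.53% lower. In CV, 0 were called higher and 5 lower, where 53.7% of all genes were called, 16% higher and 37.7% lower. The members' median log2 change was 0.79 in MGS, beside 0.365 over all genes, and -0.55 in CV, beside -0.307. After median-of-ratios rescaling the calls were 6 higher in MGS, and 2 higher and 2 lower in CV.

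In MGS, Lats2 rose most, by 1.38 on the log2 scale (2.67-fold), followed by Tead1 at 1.19 (2.35-fold) and Amotl2 at 0.97 (1.97-fold). Wwtr1 rose by 0.93, Ctgf by 0.83, Ajuba by 0.74 and Yap1 by 0.46. The limma adjusted p-values of these 7 ran from 0.00153 for Ctgf to 0.0314 for Yap1. Cyr61 was 0.29 higher and not called (adjusted p = 0.0832), though it was called without either CV library of day 32 (0.00638 and 0.0065). Axl had a change of -0.18, not called (adjusted p = 0.855), and Ankrd1 was listed at or near 0 at both days. Ctgf and Lats2 kept their calls when any 1 library was left out. Leaving out any 1 of the 4 MGS libraries lowered the count from 7 to 2 or 3, since Yap1, Wwtr1, Tead1 and Amotl2 lost their calls each time (adjusted p = 0.0746 to 0.159) and Ajuba did in 3 of the 4 (0.0586 to 0.0663). Their fitted differences moved by little.

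In CV the members called lower at day 32 were Tead1 (-1.17), Lats2 (-0.80), Ajuba (-0.56), Ankrd1 (-0.54) and Yap1 (-0.48), with limma adjusted p-values of 0.015 to 0.0305. Amotl2 measured -0.67 and was not called (adjusted p = 0.0623). Ctgf measured 0.28 (0.0674), Cyr61 0.02 (0.895), Wwtr1 -0.18 (0.517) and Axl -0.99 (0.285), none of them called. Other scalings did call Ctgf higher at day 32 in CV. It measured 0.55 with FPKM (limma adjusted p = 0.00225), 0.68 after median-of-ratios rescaling (0.00186) and 0.38 with the length and GC correction (0.00139). Quantile normalization gave 0.24, not called. Median-of-ratios rescaling also called Cyr61 higher (0.42), and the length and GC correction Wwtr1 (0.30). On the TPM scale the counts leaned on single libraries. Without the second CV library of day 5 no member was called lower. Without the first CV library of day 32, 3 were called lower and 2 higher, and without the second, 8 were called lower.

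The difference between these differences was tested directly as an interaction of culture with day. It was called for 7 members, all with MGS relatively higher at day 32, where 62% of all genes were called, 49.7% in that direction and 12.3% in the other. On the TPM scale Tead1 had the largest value, 2.37 (SE 0.43, adjusted p = 0.00335), followed by Lats2 at 2.18 (SE 0.35, adjusted p = 0.00205), Amotl2 at 1.64 (SE 0.37, adjusted p = 0.00752) and Ajuba at 1.3 (SE 0.21, adjusted p = 0.00205). Wwtr1 stood at 1.10, Yap1 at 0.94 and Ctgf at 0.55. Over all genes the median interaction was 0.654, so Ctgf lay below that median and Amotl2, Lats2 and Ajuba above it. The length and GC correction took Tead1 to 0.29, not called (adjusted p = 0.133), below Lats2 (1.1), Amotl2 (0.94) and Ajuba (0.91). Amotl2, Lats2 and Ajuba were called in all 21 settings run, at 0.82, 1.36 and 0.48 after median-of-ratios rescaling. That rescaling removed the calls of Yap1 (0.12), Wwtr1 (0.28) and Ctgf (-0.28). The calls of Wwtr1 and Ctgf were each lost when any of 5 libraries was left out, namely either MGS library of either day or the second CV library of day 5 (adjusted p = 0.0573 to 0.0774 for Ctgf and 0.0544 to 0.0625 for Wwtr1). Cyr61 (0.27, adjusted p = 0.195) and Ankrd1 (0.51, adjusted p = 0.0534) were not called. Without the second CV library of day 32 they measured 0.43 and 0.70. Other scalings called the Cyr61 interaction in opposite directions. It was -0.56 after median-of-ratios rescaling (limma adjusted p = 0.0473) and 0.76 with quantile normalization (0.0476). Quantile normalization also called Ankrd1, at 0.40 (0.0427). Axl was not called at 0.81 (adjusted p = 0.514), and measured -0.58 without the first and 2.20 without the second CV library of day 32.

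Ratios inside a library do not depend on a scaling by 1 factor per library. Each member was therefore also read against the summed level of Yap1 and Wwtr1 in the same library. Quantile normalization and the length and GC correction change genes unequally, and ratios were not computed under them. These ratios are given as a description, with no test. The Ctgf level per coactivator level was 0.96 and 0.907 in MGS day 5, 3.85 and 3.24 in CV day 5, 1.03 in both MGS libraries of day 32, and 5.83 and 5.01 in CV day 32. MGS stayed near 1 at both days, and CV was higher at each.

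**Figure D4:**
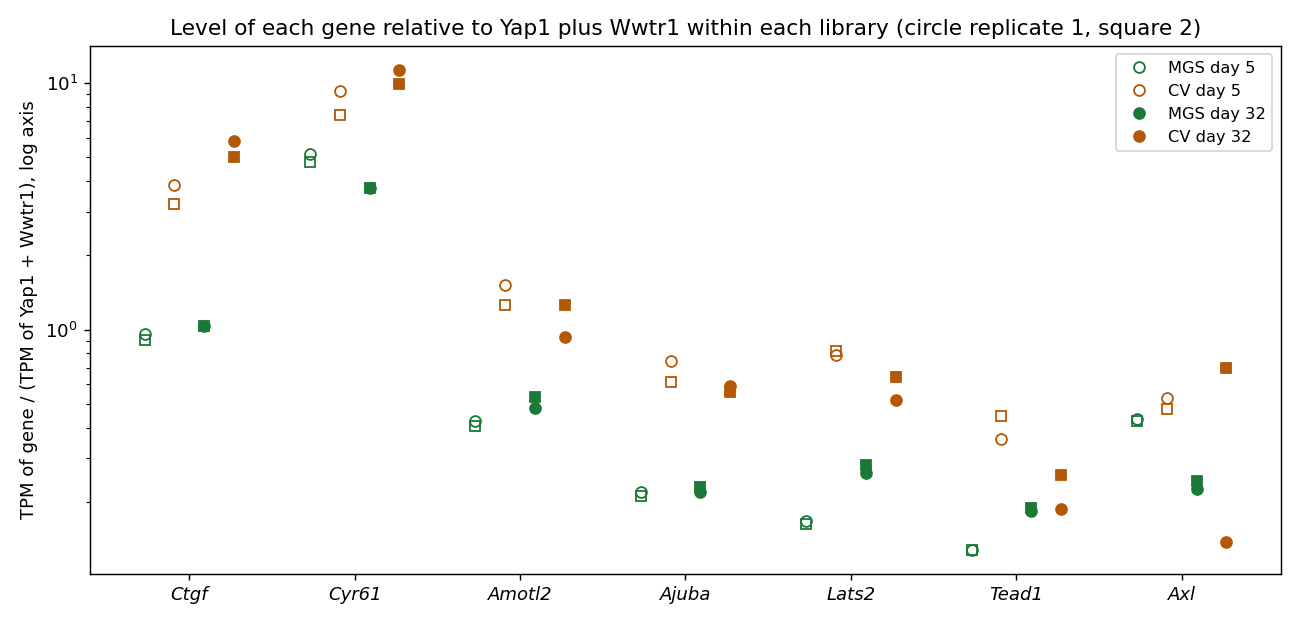
TPM of 7 genes divided by the summed TPM of Yap1 and Wwtr1 in the same library (vertical axis, log scale); each point is 1 library, circles for replicate 1 and squares for replicate 2, open for day 5 and filled for day 32. Ctgf per coactivator level lies between 0.907 and 1.03 in the 4 MGS libraries and between 3.24 and 5.83 in the 4 CV libraries.

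The same reading placed Cyr61 at 5.16 and 4.78 in MGS day 5, 9.26 and 7.39 in CV day 5, 3.76 and 3.74 in MGS day 32 and 11.3 and 9.88 in CV day 32. Amotl2, Lats2 and Ajuba were also lower in MGS at both days with no overlap. Their log2 ratio differences at day 5 were -1.73, -2.29 and -1.64, and at day 32 they were -1.10, -1.09 and -1.35. So the overlap of Amotl2 and Lats2 in TPM at day 32 was not seen in their ratio to the coactivators. On the TPM scale most of that gap lies in the denominator. There Yap1 and Wwtr1 were 0.96 and 0.91 higher in MGS at day 32, while Amotl2 and Lats2 differed by only -0.15 each. How the gap divides depends on the scaling. After median-of-ratios rescaling Amotl2 and Lats2 measured -0.78 and -0.77, and Yap1 and Wwtr1 0.34 and 0.28. With FPKM they measured -0.53 and -0.52, and 0.57 and 0.52. Tead1 per coactivator was lower in MGS at day 5 (-1.65) and overlapped at day 32 (-0.24), as did Axl at day 32. Yap1 made up 43.5% to 54.9% of the pair in all libraries. The ratio of Ctgf to Cyr61 was 0.186 and 0.19 in MGS day 5, 0.416 and 0.439 in CV day 5, 0.274 and 0.275 in MGS day 32 and 0.517 and 0.507 in CV day 32, lower in MGS at both days.

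Single genes of the rest of the TEAD family and its co-factors differed between cultures. Of 5 tested genes, 1 was called higher and 2 lower in MGS at day 5, where 22.5% of all genes were called higher and 26.4% lower. At day 32, 2 were higher and 1 lower, where the shares of all genes were 52.8% and 14.8%. Vgll3, a vestigial-like protein that binds TEAD factors, had the lowest difference of the 5 at both days. It measured 3.07 and 2.57 TPM in MGS against 25.7 and 36.7 in CV at day 5 (log2 difference -3.06, adjusted p = 2.4e-05). At day 32 it measured 8.19 and 8.55 TPM against 60 and 74.6 (-2.86, adjusted p = 2.23e-05). Tead4, another TEAD factor, measured 1.87 and 1.72 TPM in MGS and 11.4 and 11.2 in CV at day 5 (-2.13, adjusted p = 2.91e-05), but 1.08 to 1.65 TPM in all 4 libraries of day 32. Vgll4, a TEAD repressor, measured 106 and 123 TPM in MGS and 6.18 and 23.7 in CV at day 32 (3.11, adjusted p = 0.00116). Tead3 was called higher in MGS at day 5 (0.62), and lost that call without either MGS library or without the second CV library of that day (0.084 to 0.104). Tead2 was called higher at day 32 (0.34, adjusted p = 0.0389). It was -0.28 after median-of-ratios rescaling, not called, and the length and GC correction called it lower, at -0.31 (limma adjusted p = 0.0139). Of the fits that left out 1 library, it was called only without the second CV library of day 32 or without either CV library of day 5.

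On the TPM scale, genes of the kinase cascade itself were called only higher in MGS at day 32. Their lower calls at day 5 lay near the share of all genes. At day 5, FPKM, median-of-ratios rescaling and quantile normalization each gave 1 higher call, beside 5, 4 and 8 lower. Of 15 kinases and scaffolds, 4 were lower in MGS at day 5 (Mob1b -1.27, Taok1 -0.89, Map4k4 -0.78 and Stk4 -0.74) and 0 higher, beside 26.4% and 22.5% of all genes. That count fell to 0 without either MGS library or without the second CV library of day 5. It was 2 without either MGS library of day 32 and 11 without either CV library of day 32. At day 32, 10 were higher and 0 lower, beside 52.8% and 14.8% of all genes, with a median log2 difference of 1.2 beside 0.558 over all genes. Strn, a striatin scaffold that brings a phosphatase to the MST kinases, measured 22.6 and 22.1 TPM in MGS and 0.762 and 3.94 in CV (2.98, adjusted p = 0.000738). Mob1a, an activator of LATS kinases, measured 69.6 and 70.5 TPM in MGS and 3.42 and 23.2 in CV (2.78, adjusted p = 0.00819). The MST-related kinase Tnik (2.25) and Mob1b (2.15) were also higher. The length and GC correction left 7 higher and 3 lower, and median-of-ratios rescaling 9 and 2.

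Upstream junction and polarity regulators, which couple cell contacts to the cascade, gave 1 higher and 7 lower calls among 21 at day 5, beside 22.5% and 26.4% of all genes. Fat1, an atypical cadherin, measured 27.5 and 28.6 TPM in MGS and 129 and 174 in CV (-2.38, adjusted p = 0.000528). The angiomotin Amot (-1.98) and the KIBRA family genes Wwc2 (-1.95) and Wwc1 (-1.62) were also lower. The 1 higher call, the cadherin Dchs1 (0.74), was lost without any 1 library of day 5 (adjusted p = 0.0605 to 0.119), and other scalings called up to 5 higher. At day 32, 19 were higher and 0 lower, beside 52.8% and 14.8% of all genes, with a median of 1.13. Fat4, the partner of Dchs1, measured 19.6 and 21.5 TPM in MGS and 0.467 and 1.13 in CV (3.61, adjusted p = 1.4e-05). Tjp1 of tight junctions (2.65), Dchs1 (2.30) and the polarity gene Llgl1 (2.04) were also higher. The length and GC correction left 6 higher and 4 lower with a median of 0.03, and median-of-ratios rescaling left 14 and 1.

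Further genes reported as YAP/TAZ targets did not move as 1 group. Of 16, 4 were called higher and 6 lower in MGS at day 5, and 9 higher and 4 lower at day 32. The shares of all genes were 22.5% and 26.4% at day 5 and 52.8% and 14.8% at day 32, so the counts of higher calls lay near the background at both days. The lower calls at both days included Igfbp3, a secreted binding protein of insulin-like growth factors, at 90.5 and 86.1 TPM in MGS and 943 and 993 in CV at day 5 (-3.44) and at 86.1 and 82.2 against 361 and 453 at day 32 (-2.25). The kinase gene Nuak2 (-3.19 and -2.28) and F3, which encodes tissue factor (-1.51 and -1.04), were lower at both days as well. Crim1, a transmembrane BMP-binding protein, was lower at day 5 (-2.80) and 0.58 higher, not called, at day 32. Nt5e, which encodes the ectonucleotidase CD73, was higher in MGS at both days (2.14 and 2.94). The guanine exchange factor gene Dock5 was as well (1.02 and 2.25), though its day 5 call was lost without either MGS library or without the first CV library of that day (adjusted p = 0.0569 to 0.0655). Foxf2 was higher at day 5 (1.76) and less so at day 32 (0.67). It measured 4.75 and 5.3 TPM in MGS at day 5 and under 1 TPM in every CV library. Foxf2 thus passed the filter on low values only through MGS, so its calls were partly fixed by that filter. Gadd45a, a stress response gene, was higher at day 5 (0.54) and lower at day 32 (-0.45). Tgfb2 (2.27) and Arhgef17 (1.91) were higher at day 32, the latter 0.25 and not called after the length and GC correction. With that correction the day 32 counts of the 16 were 4 higher and 8 lower, with a median of -0.29. Ptpn14 is in both this list and the one of junction regulators.

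**Figure D5:**
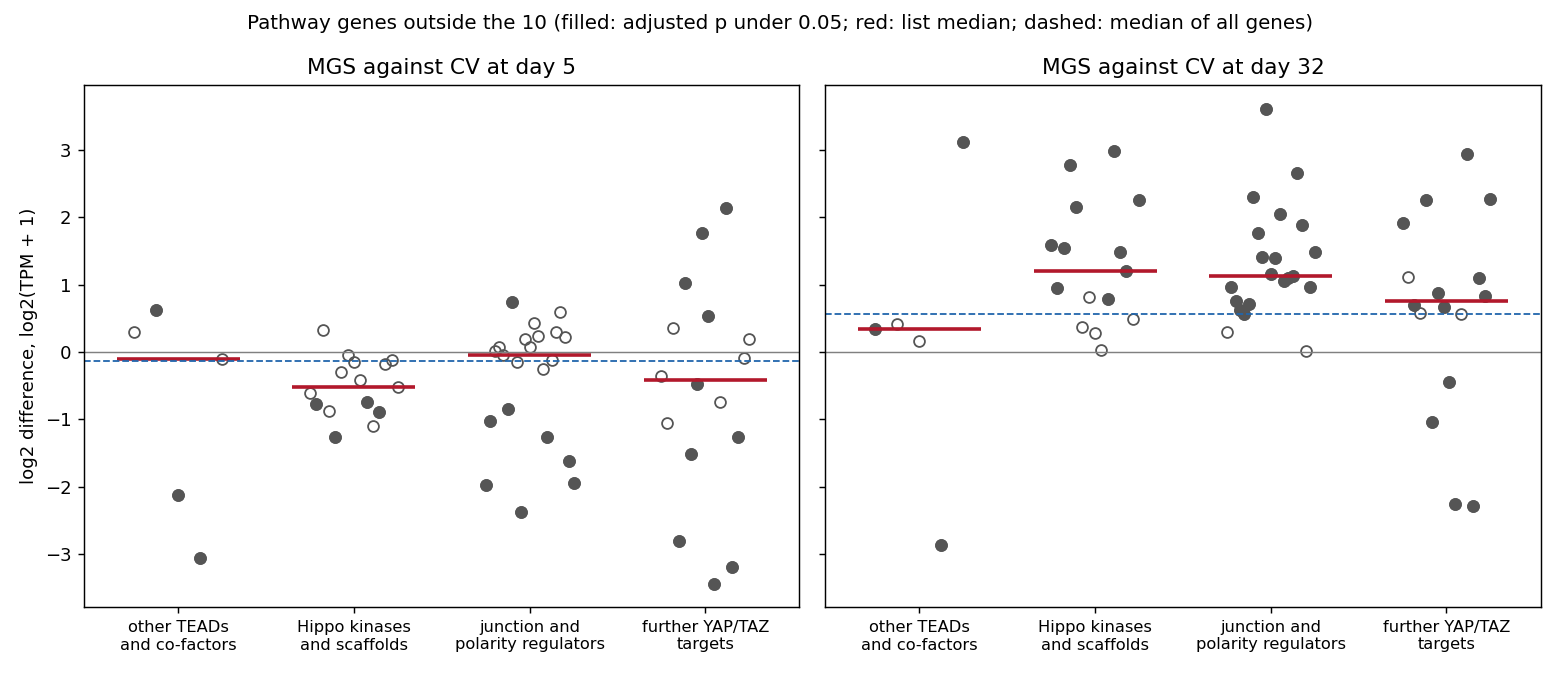
Log2 difference between MGS and CV at day 5 (left) and day 32 (right) on the log2(TPM + 1) scale (vertical axis) of each tested gene in the 4 pathway lists; each point is 1 gene, filled where the adjusted p is under 0.05, with red bars at list medians and a dashed line at the median of all genes tested. At day 32, 19 of 21 junction and polarity regulators are called higher, while the further targets hold 9 higher and 4 lower.

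Among the tested genes whose levels over the 8 libraries were most like those of Ctgf were Itga3 (Pearson r = 0.999), Ccnd1 (0.998), Nuak2 (0.997) and Bcl2l1 (0.997), from 12078 genes compared on the log2(TPM + 1) scale. Ccnd1, which encodes cyclin D1, had group means of 67.3 TPM in MGS day 5, 872 in CV day 5, 170 in MGS day 32 and 1344 in CV day 32. The integrin gene Itga3 had means of 19.5, 167, 43.8 and 207 TPM in the same order. The genes most like Yap1 were Clec16a, Dock9 and Klf13 (each r = 0.998), then Cog5 and Abcc4 (each 0.997). Klf13 had means of 17.3, 16.7, 28.1 and 10.9 TPM, near equal at day 5 and higher in MGS at day 32 as Yap1 was. These values describe likeness over 8 libraries that share 4 groups, and the genes were picked for the highest r, so no p is given.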

How the data were processed

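Each library came with a file of coverage, FPKM and TPM per gene, and 1 table held TPM for the whole series, per the file headers. Members' TPM were identical in both. The submitters' processing notes name bcl2fastq, HISAT2 2.1.0, StringTie 1.3.4d and the builds hg38 and mm10, without roles. Annotation, filters and use of strand are not given in the sources used here. Per the labels' protocols, TRIzol was used for total RNA and a directional kit for libraries. TPM were analysed as the authors deposited them. FPKM as deposited served in 1 alternative. The deposited coverage signal (mean depth per base) gave the aligned bases and the check of each member.

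Rows of 1 gene ID were summed, giving 23420 gene IDs. Read counts could not be recovered from TPM, so errors come from replicate spread alone. With limma 3.58.1 (R 4.3.3), a model of 4 group means was fitted to log2(TPM + 1) over all 8 libraries with trended empirical Bayes (4 residual and a median of 3.3 prior degrees of freedom), two-sided, with Benjamini-Hochberg adjustment over the 14904 genes with at least 1 TPM in at least 2 libraries. The fit was tested on simulated data. The members and lists were chosen with earlier results of these data known. Beside the 10 members, the text names from each list the called genes with the largest changes, at most 4 in each direction for a culture comparison and 2 for any other contrast, if their higher group averaged 5 TPM or more, and the 5 genes most like Ctgf and Yap1. Of these, 1 gene is not reported here. The longest GENCODE transcript (GRCm38) gave length and GC content for 99.3% of tested genes. The files' own mm10 coordinates are printed, and promoter sequences are RefSeq's for GRCm38.p6. Alternatives covered the pseudocount, filters, FPKM, other scalings, a length and GC correction, the replicate block and leaving out each library.

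Other cell types' marker sums not given above follow in the order MGS then CV at day 5, MGS then CV at day 32. They were 216 to 220, 30.1 to 35.4, 149 to 165 and 12 to 23.9 TPM for 8 endothelial markers. For 7 mural markers they were 192 to 193, 46.3 to 47.6, 121 to 131 and 24.2 to 35.7. For 9 ependymal and choroid plexus markers they were 13000 to 17419, 299 to 325, 3248 to 3287 and 357 to 367. For 7 oligodendrocyte markers they were 1522 to 1575, 104 to 112, 1079 to 1098 and 143 to 163, and for 7 neuron markers 87.1 to 93.1, 189 to 235, 138 to 141 and 184 to 201. At 0 in both libraries of a group were Tie1 in both CV groups, Cldn5, Kcnj8 and Abcc9 in CV day 32, Tmem212 and Mog in both CV groups, and Kl in CV day 5. Of the 8 endothelial markers, 3 were called higher and 0 lower in MGS at day 32, beside 52.8% and 14.8% of all genes. Their median log2 difference there was 0.17, so a few markers carried that sum. Of the 9 ependymal and choroid plexus markers, 5 were called higher and 2 lower at day 32 than at day 5 in MGS. The shares of all genes were 35% and 7.53%, and the markers' median was 1.35, so part of the markers carried the fall of that sum. Of the 7 neuron markers, 3 were called higher and 1 lower in MGS at day 32 (median 0.15), so part of them carried their lower sum there.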

Additional observations from a re-analysis of the deposited data

Results flagged for a closer look

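For the genes below, the difference between MGS and CV itself differed between day 5 and day 32, as tested by limma's interaction of culture with day and adjusted over all genes. Among the members, the interaction on the log2 scale was 0.94 for Yap1, 1.10 for Wwtr1, 2.37 for Tead1, 0.55 for Ctgf, 1.64 for Amotl2, 2.18 for Lats2 and 1.3 for Ajuba. Positive values mean that MGS stood relatively higher at day 32. The length and GC correction took Tead1 to 0.29 (adjusted p = 0.133), and median-of-ratios rescaling took Yap1 to 0.12, Wwtr1 to 0.28 and Ctgf to -0.28, none of them called. Among the other genes of the pathway, Strn (4.08), Fat1 (3.78), Mob1a (3.66), Fat4 (3.42), Crim1 (3.39), Vgll4 (3.23), Ptpn14 (2.36) and Tead4 (2.29) had the same sign. Foxf2 (-1.09) and Gadd45a (-0.99) had the opposite one, and Foxf2 passed the filter on low values only through MGS libraries. The adjusted p-values of these genes ran from 0.000202 for Tead4 to 0.0192 for Ctgf, and that of Mob1a was 0.0521 without the second CV library of day 5. With 49.7% of all tested genes called with a positive interaction, such a call is common in these libraries.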

How the results depend on the processing

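The 7 lower calls of day 5 were made under each alternative in which the gene was tested. So were those of Ctgf and Ankrd1 at day 32 and the interactions of Amotl2, Lats2 and Ajuba. Ankrd1 was not tested at a minimum of 5 TPM, and it passed the main filter only through CV libraries. Over all member values and alternatives, 891 kept their direction and side of the threshold. With the direction kept, 80 lost a call and 43 gained one. The other 41 changed sign, often near 0, and some of these lost or gained a call as well. With the length and GC correction at day 32, for example, Yap1 lost its call at -0.04 and Tead1 was called lower at -0.91. The cause was not tested. TPM hold no read counts, so counting error is unknown, and Ankrd1 is limited by its low depth.

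Correlations of replicate differences between groups ran from -0.131 to 0.444, the highest between CV day 5 and CV day 32. The labels do not say what same-numbered libraries share, so the replicate block is an alternative. With it, 3 members were higher and 4 lower at day 32, 6 lower over time in CV, and 8 interactions were called. With the replicate block and the length and GC correction, the counts higher and lower were 1 and 7 at day 5, 0 and 7 at day 32, 2 and 3 over time in CV, and 3 and 1 for the interaction. Under both this fit and the correction alone, values that changed sign were Yap1 -0.04 at day 32, -0.25 over time in MGS, 0.13 over time in CV and -0.38 for the interaction; Wwtr1 0.09 at day 5, 0.30 over time in CV and -0.003 for the interaction; Tead1 -0.91 at day 32; Cyr61 -0.11 over time in CV; Axl -0.28, Tead2 -0.31 at day 32 and Gadd45a -0.05 over time in CV.

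The correction alone gave 1 higher at day 5, 0 higher and 7 lower at day 32, 2 and 2 over time in CV and 3 higher interactions. Median-of-ratios rescaling gave 1 higher at day 32, 2 and 2 over time in CV, and 4 higher and 1 lower interaction; FPKM gave 1 higher over time in CV. The fit of only the 4 libraries compared gave 1 lower over time in MGS and 0 lower in CV. Signs changed after median-of-ratios rescaling for Wwtr1 over time in CV (0.21), Ctgf's interaction (-0.28), Cyr61 over time in MGS (-0.14) and its interaction (-0.56), Axl (-0.11) and Tead2 (-0.28) at day 32. They changed with FPKM for Wwtr1 over time in CV (0.09), Cyr61's interaction (-0.26) and Tead2 (-0.03), and with quantile normalization for Wwtr1 (0.03) and Cyr61 (-0.15) over time in CV and Tead2 (-0.11).

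When each library was left out in turn, counts of members ranged from 2 to 5 higher and 3 to 7 lower at day 32, from 2 to 8 higher over time in MGS, from 0 to 2 higher and 0 to 8 lower over time in CV, and from 0 to 1 lower for the interaction. Values whose sign changed ranged from -0.03 to 0.08 for Yap1 and -0.42 to 0.03 for Wwtr1 at day 5; from -0.62 to 0.31 for Amotl2, -0.55 to 0.26 for Lats2 and -0.88 to 1.89 for Axl at day 32; from -0.48 to 0.13 for Wwtr1, -0.14 to 0.18 for Cyr61 and -2.38 to 0.40 for Axl over time in CV; from -0.05 to 0.0 for Ankrd1 over time in MGS; and from -0.58 to 2.20 for Axl's interaction. With 1 library left in a group, that library was assumed to vary like the other groups.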
